A study of Mus musculus with 6 samples.

Results

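The genes described here are Entpd4, Entpd4b, Gm16867, Gm21451, Gm38378 and Slc25a37, which GENCODE M21 places in a stretch of mouse chromosome 14 that holds duplicated sequence (GRCm38, chr14:69241848-69585520). They were chosen by symbol and position, with the Dock3 KO against WT values of these samples already known, so their differences between genotypes are given as a description and without a test. Of the 6 genes, 5 have values among the 54393 genes of the table, and Entpd4b was not analysed here on its own. RNA sequencing was done on tibialis anterior, a fast muscle of the lower hind leg, from adult mice, with n = 3 wild-type (WT) muscles and n = 3 muscles of the Dock3 KO genotype (Dock3 knockout, KO). Dock3 encodes an exchange factor that activates the small GTPase Rac. The WT samples carry the numbers 1, 3 and 4 and titles that begin with C57. The labels give no strain for the Dock3 KO samples, no sex, and no description of the Dock3 allele. Nothing in the labels says whether each muscle came from a separate animal, so the spread within a group is the spread between these samples. In bulk muscle RNA, fewer cells of a type and less RNA per cell cannot be told apart.

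Slc25a37 encodes mitoferrin-1, a carrier of the inner mitochondrial membrane that brings iron into mitochondria for the synthesis of heme and iron-sulfur clusters, and it is best known from developing red cells. Entpd4 encodes a membrane-bound nucleoside diphosphatase of the Golgi and lysosomes, which hydrolyses UDP, a product of the transfer of sugars to proteins and lipids. A segmental duplication leaves near-identical exons at separate positions of a genome, and short reads from such exons fit each copy equally well. A tool that assigns those reads then divides them between the copies by the bases that differ, or by an estimate.

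The annotation shows the duplicated stretch as a pair of units in the same order. In the first unit, Slc25a37 (minus strand, chr14:69241848-69285112) is followed by Synb, which encodes the placental fusion protein syncytin-B, by Entpd4 (plus strand, chr14:69337174-69367270), and by Gm21451 (plus strand, chr14:69390854-69480287), an unprocessed pseudogene. In the second unit, the 5′ end of Gm16867 (minus strand, chr14:69363504-69503362, annotated as protein-coding) is followed by Gm27179, Entpd4b (plus strand, chr14:69555424-69585520) and Loxl2 (plus strand, chr14:69609068-69695834). Loxl2 encodes a secreted lysyl oxidase that cross-links collagen and elastin. The 5′ ends of Slc25a37 and Gm16867 lie 218250 bp apart, and so do those of Synb and Gm27179 and the starts and ends of Entpd4 and Entpd4b. Exon 2 of Gm21451 and exon 2 of Loxl2 lie 218275 bp apart, as do their exons 12. Gm38378 (minus strand, chr14:69395504-69397771), a single-exon transcript that GENCODE lists as still to be verified by experiment, lies in an intron of Gm21451, 218275 bp from its exact copy Gm37513 in an intron of Loxl2.

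**Figure D1:**
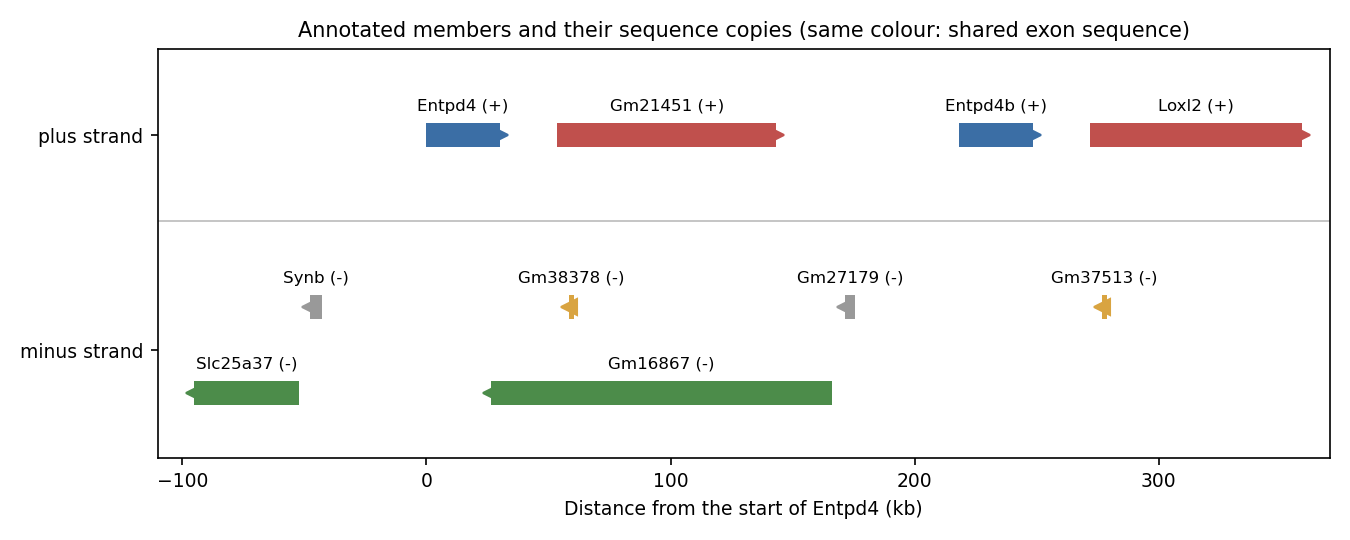
Positions of the 6 genes and of their partners Synb, Gm27179, Loxl2 and Gm37513, in kb from the start of Entpd4, by strand; arrowheads point in the direction of transcription and genes of one colour share exon sequence. The order Slc25a37, Synb, Entpd4, Gm21451 recurs as Gm16867, Gm27179, Entpd4b, Loxl2, and each partner lies about 218 kb from the other at the shared exons.

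By sequence, therefore, only some of the genes are copies of Entpd4 or Slc25a37. All 5 transcripts of Entpd4b are identical in sequence to transcripts of Entpd4, the longest over 3589 bases without a mismatch. Gm16867 shares with Slc25a37 a block of 382 bases, which covers exon 1, and one further short transcript of 342 bases is identical between them. The other exons of Gm16867 lie across the stretch from Entpd4 to Gm21451, and 2110 of its 7788 exon bases overlap exons of Entpd4 on the opposite strand. Gm21451 and Gm38378 have no block of 100 bases or more in common with Entpd4 or Slc25a37 in the same orientation. Gm21451 matches Loxl2 without a mismatch over 2348 of its 2775 bases, and its remaining 427 bases match Gm27222, a transcript antisense to Slc25a37. Against the working name of the stretch, these last genes are thus described below with Loxl2.

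The places where the copies part are shown next, because reads that lie wholly within the shared bases do not separate the partners. Reads beyond these places separate the partners shown, but not always from other genes. There, the bases of Gm21451 match Gm27222, and much of Gm16867 matches Gm27177, an antisense transcript of the second unit. Each line gives up to 30 bases before an exon junction in lower case, which are identical between the partners, and the bases after it in capitals, where the transcripts differ. The sequences are those of GENCODE M21 transcripts, 5′ to 3′, and those of Slc25a37, Gm16867 and Loxl2 are coding.
Slc25a37, exons 1 and 2: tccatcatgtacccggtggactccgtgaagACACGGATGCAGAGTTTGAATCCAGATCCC
Gm16867-201: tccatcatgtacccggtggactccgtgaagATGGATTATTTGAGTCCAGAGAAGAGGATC
Gm16867-203: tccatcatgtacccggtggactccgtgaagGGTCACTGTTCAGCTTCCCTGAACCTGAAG
Gm16867-205: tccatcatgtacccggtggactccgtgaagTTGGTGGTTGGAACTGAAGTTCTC
Loxl2, exons 12 and 13: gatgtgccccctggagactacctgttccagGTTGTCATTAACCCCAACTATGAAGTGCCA
Gm21451, exons 12 and 13: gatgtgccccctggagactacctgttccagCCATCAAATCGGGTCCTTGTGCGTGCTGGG
Exon 1 of Slc25a37 ends at the base chr14:69284732 and its exon 2 begins at chr14:69249622, on the minus strand. Exon 1 of the Gm16867 transcripts ends at chr14:69502982, and its next exon begins at chr14:69465011 in the first of these transcripts, chr14:69421999 in the next and chr14:69373121 in the last. Exon 12 of Loxl2 is chr14:69690134-69690270 and exon 12 of Gm21451 is chr14:69471859-69471995, each of 137 bases.

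How much of each gene could separate it from the rest was measured by the 31-base words of its transcripts. Of 6048 words of Slc25a37, 5581 (92.3%) occur in no other GENCODE gene on the same strand. Entpd4 and Entpd4b hold the same 8149 words, so none is particular to either, and the row named Entpd4 cannot be read as the output of 1 of the pair. Gm16867 has 494 words of its own out of 7809 (6.33%) on the same strand and 84 (1.08%) when both strands are compared, and 88.0% of its words are also in Gm27177, an antisense transcript of the second unit. Only 30 of 2745 words of Gm21451 (1.09%) are its own, the words that span the junction shown above. Gm38378 has none, since Gm37513 is identical to it. Loxl2 keeps 2882 of 5358 words (53.8%). Of the 55450 genes of the annotation, 1057 were not analysed here, and each of the 1057, Entpd4b among them, has only transcripts that are identical to those of another gene; of the 54393 analysed, that holds for 0.949%.

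**Figure D2:**
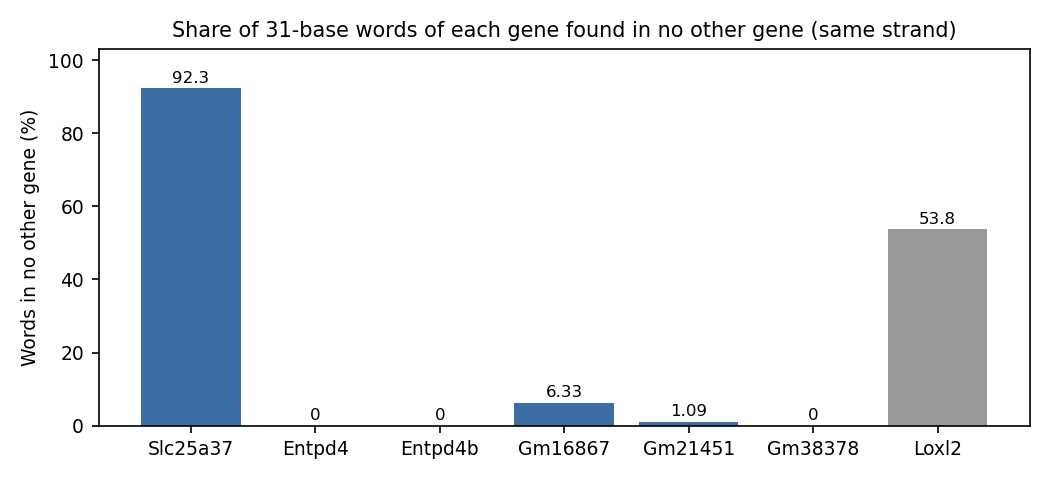
Share of the 31-base words of each gene that occur in no other GENCODE M21 gene on the same strand, in percent, with the value above each bar. Slc25a37 stands at 92.3% and Loxl2 (grey, not one of the 6) at 53.8%, while Gm16867, Gm21451, Entpd4, Entpd4b and Gm38378 stand at 6.33% or less; with both strands compared Gm16867 would stand at 1.08%.

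The normalized counts of a sample summed to between 23520200 and 33393900, and the most frequent low value, taken as the worth of 1 read, was 0.775 to 1.525. Dock3 itself ranged from 118 to 169 normalized counts in WT muscle and from 1.54 to 22.4 in knockout muscle (log2 difference -4.76, limma adjusted p = 0.0140). That call was lost with a prior variance without trend (limma adjusted p = 0.123), and with WT replicate 1, 3 or 4 or Dock3 KO replicate 2 left out (limma adjusted p = 0.0591 to 0.0771). Dock3 KO replicates 1 and 2 differ from the other 4 libraries in that Gm42418 and Lars2 take 17.9% and 20.3% of their sum, against 3.00% to 3.64% elsewhere. Those replicates are therefore set beside replicate 3 below. Summed markers of fast muscle (8 genes, among them Acta1, Ckm and Myh4) ranged from 1384710 to 1508030 in WT and from 1369500 to 1572470 in Dock3 KO.

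Entpd4 had the higher values in all 3 Dock3 KO muscles. WT replicates 1, 3 and 4 gave 2128, 2146 and 2647 normalized counts of Entpd4, and KO replicates 1, 2 and 3 gave 3726, 3701 and 4059. The groups did not overlap: the lowest KO value was 1.398 times the highest WT value. The WT mean was 2307 ± 295 and the KO mean 3829 ± 199.9 (SD, n = 3 each), 1.66-fold apart, for a log2 difference of 0.74 (SE 0.130). Entpd4b was not analysed here on its own, so this is also the value of the summed Entpd4 copies. Its transcripts are identical to transcripts of Entpd4, and the Entpd4 values may hold reads of both. With Dock3 KO replicate 3, the sample with the highest Entpd4, alone in its group the log2 difference was 0.82. The part of the libraries rich in Gm42418 and Lars2 in the difference was not tested. Rescaling every sample to the same total moved it to 0.46 and moved the median of all genes tested to -0.28. Relative to that median Entpd4 differed by 0.74, a value that rescaling leaves nearly fixed by construction.

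On the log2 scale, Slc25a37 varied more within the genotypes than Entpd4 did (pooled SD 0.334 against 0.137). WT replicates 1, 3 and 4 gave 605, 455 and 638 normalized counts, and KO replicates 1, 2 and 3 gave 945, 551 and 779. The groups overlapped, since Dock3 KO replicate 2 lay below WT replicates 1 and 4. Means were 566 ± 97.7 and 759 ± 198 (SD, n = 3 each), for a log2 difference of 0.40 (SE 0.213). That difference ran from 0.23 to 0.62 when 1 sample was left out and was 0.13 after rescaling to the same total, which is 0.41 relative to the median of all genes tested. The red cell markers are given beside these values because mitoferrin-1 is abundant in red cell precursors. The 4 adult globin genes summed to 39953, 28156 and 54257 in the same WT replicates and 96340, 45549 and 36390 in the KO replicates. WT replicate 3 was lowest and Dock3 KO replicate 1 highest in both quantities, while Dock3 KO replicate 3 was above every WT sample for Slc25a37 and below WT replicates 1 and 4 for globins. All 14 red cell markers together ranged from 32368 to 58428 in WT and from 41139 to 101796 in Dock3 KO. The defining factor Gata1 was at 1.65 to 3.28 in WT and listed at 0 in all Dock3 KO samples. Of 9 red cell markers tested, 9 of 9 had a log2 difference above 0, beside 49.0% of all genes tested. Their median was 0.62, and 0 passed with limma, beside 1.03% of all genes tested. Of the markers under the minimum mean, Epb42, Klf1 and Tspo2, like Gata1, had lower means in Dock3 KO. These went from 8.52 to 6.65, from 2.22 to 0.487 and from 4.60 to 2.26, while Ermap was at 6.28 in WT and 6.81 in Dock3 KO. Among the tested markers with the smallest p were Hbb-bt, a beta globin, and Alas2, an enzyme of heme synthesis in red cells. They differed by 0.71 and 0.63 (limma adjusted p 0.484 and 0.508). The part of red cell RNA in the Slc25a37 values was not tested.

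Gm16867, the gene whose exon 1 repeats that of Slc25a37, was close to absent from the WT libraries. WT replicates 1, 3 and 4 gave 0, 0.747 and 1.49 normalized counts, which is 0, 0.904 and 1.803 times the worth of 1 read. KO replicates 1, 2 and 3 gave 110, 94.5 and 111, a mean of 105 ± 9.29 (SD, n = 3). The Dock3 KO values were close to each other, replicate 3 included, and all lay far above WT. As a share of the summed normalized counts of Slc25a37 and Gm16867, which does not depend on a sample's scaling, Gm16867 took 0%, 0.164% and 0.232% in WT. Its share was 10.4%, 14.6% and 12.5% in the KO muscles. Since 26.3% of its words are the reverse complement of Entpd4 words, Gm16867 was also set against Entpd4: it made up 2.87%, 2.49% and 2.67% of the sum of those genes in Dock3 KO and at most 0.0561% in WT. The use of strand in the counting is not given in the sources used here, so reads of Gm16867 and of Entpd4 over the overlapping exons may not be separable. Gm27177, which holds 88.0% of the words of Gm16867, was listed at 4.43 in WT replicate 1 and at 0 in the other 5 samples.

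**Figure D3:**
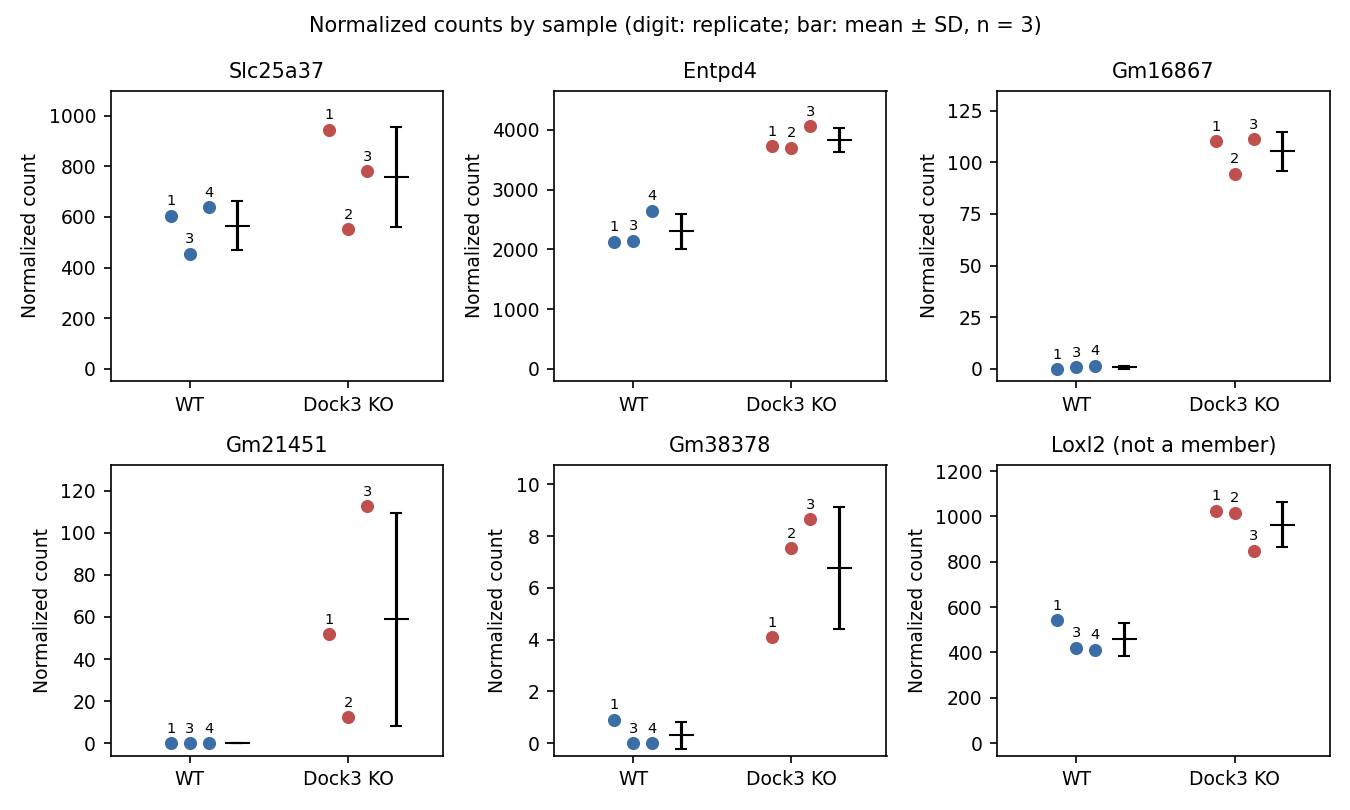
Normalized counts of the 5 genes with values and of Loxl2 in each sample, on a linear axis of its own per gene; points are samples numbered by replicate, and bars are mean ± SD (n = 3). Entpd4, Gm16867, Gm21451, Gm38378 and Loxl2 have every Dock3 KO sample above every WT sample, and Slc25a37 overlaps.

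Gm21451, the partial copy of Loxl2, was listed at 0 in all 3 WT samples. KO replicates 1, 2 and 3 gave 51.7, 12.3 and 113 normalized counts, a mean of 58.8 ± 50.5 (SD, n = 3). These values lie far apart, unlike those of Gm16867 in the same libraries. Gm27222, whose sequence forms the last 427 bases of Gm21451, was listed at 20.6 in Dock3 KO replicate 2, where Gm21451 was lowest, at 1.49 in replicate 3 and at 0 in the other 4 samples. Gm38378 was low throughout: WT replicates 1, 3 and 4 gave 0.905, 0 and 0, and KO replicates gave 4.10, 7.53 and 8.66. Each of its Dock3 KO values lay above each WT value, at 2.93, 4.94 and 11.2 times the worth of 1 read.

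Loxl2, which shares 2318 of its 5358 words with Gm21451, gave 543, 421 and 412 normalized counts in the WT muscles, and the KO muscles gave 1024, 1017 and 849. With the deposited scaling, replicate 3 had the lowest Loxl2 and the highest Gm21451 of the Dock3 KO samples. With Gm21451 added, the KO muscles came to 1076, 1029 and 962 while the WT values were the same, for a log2 difference of 1.17 (SE 0.136). With the deposited scaling, the SD of the Dock3 KO values was 98.9 for Loxl2 alone and 57.4 for the sum. This order of the Dock3 KO samples depends on the scaling. Per 1000000 normalized counts of a sample's sum, Loxl2 and Gm21451 together stood at 32.2, 31.2 and 38.2 in KO replicates 1, 2 and 3. Replicate 3 was then the highest. Gm21451 made up 4.81%, 1.20% and 11.7% of that sum.

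Sums were taken over the measured members, and they still depend on how reads were divided with genes outside them, since Gm16867 shares 88.0% of its words with Gm27177 and only 5.67% with Slc25a37, and Gm21451 shares 84.4% with Loxl2. Slc25a37 and Gm16867 together came to 605, 456 and 639 in WT replicates 1, 3 and 4, and KO replicates 1, 2 and 3 reached 1055, 646 and 891. With the deposited scaling these sums did not overlap, by a margin of 1.01-fold between the nearest samples, and their log2 difference was 0.59 (SE 0.257). Rescaled to the same total the log2 difference was 0.32 and the groups overlapped: per 1000000 normalized counts of a sample's sum, the WT muscles stood at 24.1, 19.4 and 24.1 and the KO muscles at 31.6, 19.6 and 35.4. All 5 measured genes together came to 2735, 2602 and 3287 in WT muscle, and KO muscle reached 4837, 4367 and 5071, for a log2 difference of 0.73 (SE 0.121). Most of this total is Entpd4. Of the 5 genes, 4 reached the minimum mean of 10 normalized counts for the test across genes, Gm16867 and Gm21451 only through their Dock3 KO values. Entpd4, Gm16867 and Gm21451 were among the genes past a limma adjusted p of 0.05, a call made for 1.03% of the 16031 genes tested; since the genes were chosen with this comparison known, nothing is read from that. The same holds for the 4 of 5 genes with no overlap, higher in Dock3 KO, beside 7.60% of the genes tested.

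**Figure D4:**
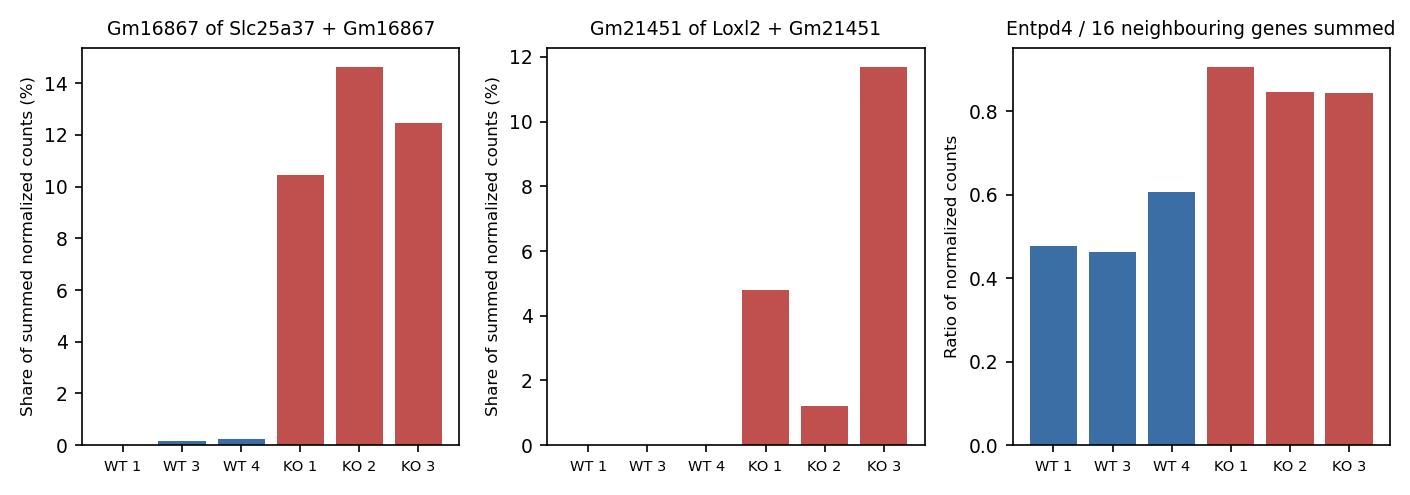
Left and middle, the share of Gm16867 in the summed normalized counts of Slc25a37 and Gm16867, and of Gm21451 in those of Loxl2 and Gm21451, in percent; right, the ratio of Entpd4 to the sum of 16 neighbouring genes; bars are single samples. Gm16867 takes 10.4% to 14.6% in Dock3 KO and at most 0.232% in WT, and the Entpd4 ratio is 0.845 to 0.907 in Dock3 KO and 0.463 to 0.607 in WT.

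A ratio within each library needs no scaling. Divided by the sum of neighbouring genes given next, Entpd4 stood higher in every KO muscle than in every WT muscle. This is a description, since Entpd4 and that set of neighbours were chosen with the values known. The 16 tested genes within 1 Mb that share no 31-base word with the 6 genes summed to a mean of 4481 ± 139 normalized counts for WT and 4431 ± 352 for KO (SD, n = 3 each). Entpd4 divided by that sum was 0.478, 0.463 and 0.607 in the WT muscles, and 0.907, 0.845 and 0.845 in the KO muscles. Slc25a37 divided by it was 0.127 ± 0.0254 for WT and 0.173 ± 0.0529 for KO (SD, n = 3 each), with overlap between the groups.

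The genes tested whose pattern over the 6 samples lay closest were found by the root-mean-square difference of centred log2 values. For Entpd4 these were 9430025C20Rik (0.0941), Gm47056 (0.108) and Edem1 (0.108), the last encoding a protein of endoplasmic reticulum quality control. The mean of Edem1 was 228 in WT muscle and 375 in KO muscle (limma adjusted p 0.105). For Slc25a37 they were D030056L22Rik (0.0532), Klhdc1 (0.0921) and Gm26035 (0.105). For Gm16867 they were Gm10600 (0.388), Prss55 (0.394) and Hmgb1-ps8 (0.598), on chromosomes 4, 14 and 10. Gm10600 and Prss55 were listed at 0 in all WT samples and between 63.8 and 74.4 in Dock3 KO. Both were picked for their likeness to Gm16867 and reached the minimum mean only through their Dock3 KO values. Nothing beyond that likeness is therefore read from them.

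Other genes in and around the stretch were then tested. Within 1 Mb on either side 58 other genes had values, of which 25 were tested and 15 were listed at 0 in every sample. Only Loxl2 passed, 1 of 25, beside 1.03% of all genes tested. Loxl2 was higher in Dock3 KO by 1.08 on the log2 scale (SE 0.158, limma adjusted p 0.00922). Its limma adjusted p was 0.0555, 0.0528 and 0.0564 with WT replicate 3, WT replicate 4 and Dock3 KO replicate 2 left out in turn, and ranged over all alternatives from 0.00245 to 0.337. The median log2 difference of the 25 genes was 0.13, and 14 of 25 were above 0. Over all genes tested the median was -0.01 and 49.0% were above 0. Of the 16 without a shared word, 0 passed with limma, 1 had an unadjusted limma p under 0.05, and the median was -0.06. That unadjusted level was reached by 1685 of the 16031 genes tested.

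Other genes of the stretch, and Piwil2 beyond it, did not pass. Synb gave 12.6, 16.7 and 2.48 normalized counts in the WT muscles, and 15.1, 7.55 and 6.99 in the KO muscles, with overlap between the groups and a limma adjusted p of 0.977. Its copy Gm27179 was listed at 0 in all samples. Gm20236, a transcript within Slc25a37 with an exact copy 218250 bp away and named here after its values were seen, had a WT mean of 11.1 ± 2.20 and a KO mean of 28.8 ± 6.43 (SD, n = 3 each). Its groups did not overlap, and its log2 difference of 1.29 had a limma adjusted p of 0.293. Piwil2, a PIWI protein of the germ line that was also named after its values were seen, had a log2 difference of 1.49 with a limma adjusted p of 0.219.

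**Figure D5:**
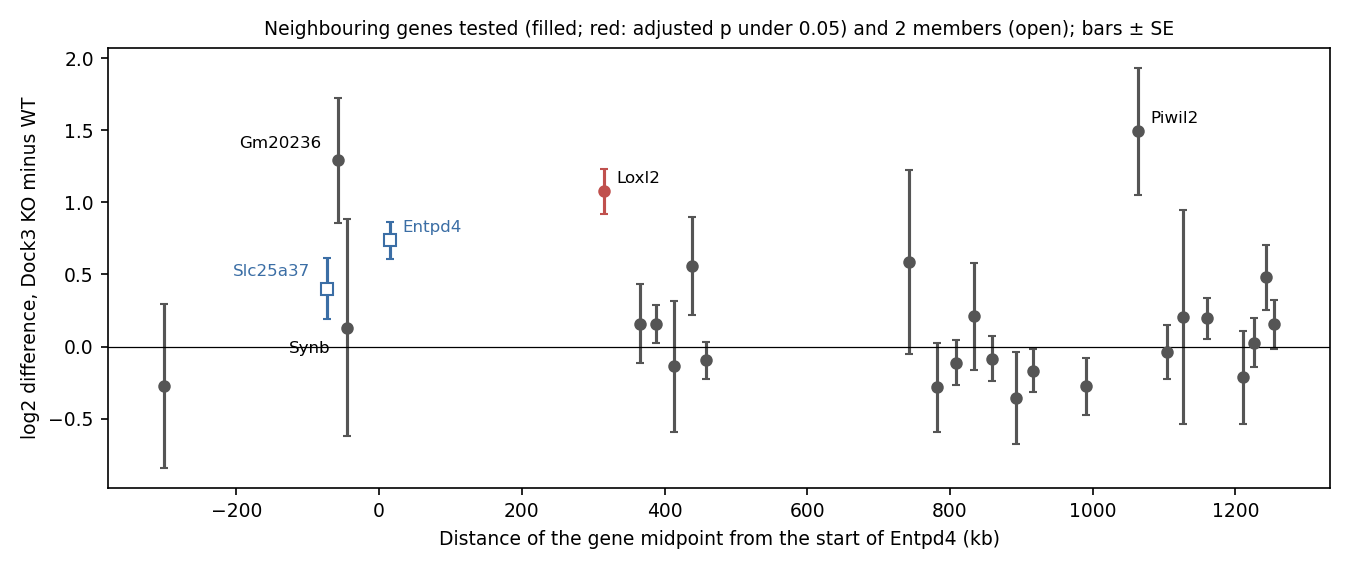
Log2 difference (Dock3 KO minus WT, bars ± SE from limma) of the 25 neighbouring genes tested, filled, and of Slc25a37 and Entpd4, open, against distance from the start of Entpd4 in kb. Loxl2, in red, is the only neighbour with an adjusted p under 0.05; Piwil2 and Gm20236 have larger differences with wider errors.

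Relatives of Entpd4, and its partners in nucleotide and nucleotide-sugar handling, did not pass the test. Of 19 listed nucleotidases and nucleotide-sugar transporters, not all of them of the Golgi, 17 were tested and 0 passed with limma. Over all genes tested, 1.03% passed. A list of this size would hold few calls at that share, so nothing is read from the 0. On simulated data limma called 22 of 67 genes changed by 1 (log2). An unadjusted limma p under 0.05 was found for 1 of the 17, beside 1685 of the 16031 genes tested. The median log2 difference was -0.13, and 5 of 17 were above 0, beside 49.0% of all genes tested. Entpd5 and Entpd6, soluble relatives of Entpd4, had WT means of 439 ± 18.1 and 178 ± 11.4 and KO means of 411 ± 10.8 and 164 ± 6.99 (SD, n = 3 each). Slc35a2, the Golgi carrier of UDP-galactose, had the smallest p of the list, with a WT mean of 172 ± 17.8 and a KO mean of 104 ± 12.96 (SD, n = 3 each). Its groups did not overlap, and its log2 difference was -0.73 (limma adjusted p 0.182). The next, Slc35a3 and Slc35d1, which carry other UDP-linked sugars, had log2 differences of 0.47 and 0.46 (limma adjusted p 0.574 and 0.592).

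Genes of mitochondrial iron use around mitoferrin-1 did not pass either. Of 29 genes for mitochondrial iron import, heme and iron-sulfur cluster synthesis, 28 were tested and 0 passed with limma. Over all genes tested, 1.03% passed, so 0 in a list of this size says little. An unadjusted limma p under 0.05 was found for 2 of the 28, beside 1685 of the 16031 genes tested. The median log2 difference was 0.05. Slc25a28, which encodes mitoferrin-2, had a WT mean of 356 ± 44.3 and a KO mean of 378 ± 49.1 (SD, n = 3 each), and its log2 difference of 0.08 changed to -0.19 when samples were rescaled to the same total and to -0.0055 and -0.016 without WT replicate 1 and Dock3 KO replicate 1. Hspa9, a mitochondrial chaperone that acts in cluster assembly, and Isca1, a cluster assembly protein, were among those with the smallest p-values. On the log2 scale they differed by 0.35 and 0.25 (limma adjusted p 0.426 and 0.491).

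Of 15 genes for iron uptake, storage and export by the cell, 15 were tested and 0 passed with limma, beside 1.03% of all genes tested. An unadjusted limma p under 0.05 was found for 3 of the 15, beside 1685 of the 16031 genes tested. The median log2 difference was 0.09. Slc40a1, which encodes the iron exporter ferroportin, had a WT mean of 470 ± 79.8 and a KO mean of 658 ± 10.5 (SD, n = 3 each), with no overlap and a limma adjusted p of 0.254. Pcbp2, an iron chaperone and RNA-binding protein, and Slc39a8, a metal ion importer, had log2 differences of 0.44 and -0.90 (limma adjusted p 0.397 and 0.467). Markers of other cells were also below the threshold: 0 of 9 red cell, 0 of 7 adipocyte, 0 of 7 Schwann cell, 0 of 7 macrophage and 0 of 5 endothelial genes tested passed with limma, with 1, 2, 1, 0 and 0 at an unadjusted p under 0.05. At 1.03% over all genes tested, sets this small would hold few calls, so nothing is read from these counts. The summed macrophage markers were 3661 to 3951 in WT and 2907 to 3683 in Dock3 KO, and the summed endothelial markers 3693 to 5003 and 3644 to 4488.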

How the data were processed

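The authors deposited 1 table of normalized counts per gene for the 6 samples, treated here as a signal because the values are not whole and have no fixed sum. The submitters' processing notes name Trim Galore 0.4.5, Salmon 0.12.0, DESeq2 1.22.1, R 3.5.3 and the builds mm10 and GRCm38, without their roles. How reads shared by copies were divided, and whether strand was used, are not given in the sources used here. Only 21.4% to 36.9% of low values were whole multiples (within 0.02) of the worth of 1 read, so count tests were not run and precision rests on 3 samples per group.

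All 54393 identifiers matched GENCODE M21. Log2(value + 1) of genes with a mean of at least 10 was fitted with limma 3.58.1 (R 4.3.3, trended prior variance, no covariates) over all 6 samples, with Benjamini-Hochberg adjustment over all genes tested and a threshold of 0.05. On simulated data for 16031 genes, limma called 22 of 67 genes changed by 1, 58 of 67 by 2 and 65 of 66 by 3 (log2), and 10 unchanged genes. Members and lists were chosen with earlier results of these data known. Members have no test; differences and errors (SE from limma for single genes, from the SDs of log2 values for sums) are descriptive. A sum of copies takes members whose longest transcript matches Entpd4 or Slc25a37 in the same orientation (blastn 2.17.0, at least 95% identity and 100 bases), and leaves out Gm21451 and Gm38378, which match neither. Of 112 list genes, 110 matched. Named genes are the 6 members, Dock3, Slc25a28, Entpd5, Entpd6, called genes of the neighbours and lists or else the 3 of a list with the smallest p, and the 3 genes closest in pattern to Entpd4, Gm16867 and Slc25a37; of the marker lists only the red cell genes are named, for space. Some genes that this rule would name are not reported here. Alternatives were other pseudocounts, filters, scalings, a prior variance without trend, a replicate block and leaving out samples.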

Additional observations from a re-analysis of the deposited data

How the results depend on the processing

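The number of genes past the threshold, 165, fell to 104 with a prior variance without trend and to 56 with Dock3 KO replicate 3 alone in its group, and ranged from 100 (without WT replicate 4; 102 without Dock3 KO replicate 2) to 159 when 1 sample was left out. Rescaling to the same total gave 177 genes and moved the share that was higher in Dock3 KO from 43.0% to 23.2%. The 1 neighbour past the threshold, Loxl2, was lost (0 genes) with rescaling to the same total, a prior variance without trend, the replicate block, and Dock3 KO replicate 3 alone, and the count was 0 to 1 when 1 sample was left out. Among neighbours without a shared word, a set that leaves Loxl2 out, it was 0. Rescaling to the same total moved the Entpd4 sum to 0.46, the Slc25a37 sum from 0.59 to 0.32, the sum of all members to 0.46 and that of Loxl2 and Gm21451 to 0.89. When 1 sample was left out, these sums ranged, in the same order, from 0.68 to 0.84, from 0.43 to 0.79, from 0.66 to 0.83 and from 1.09 to 1.29. Slc25a28, at 0.08, was at -0.19 rescaled and between -0.02 and 0.17 when 1 sample was left out, changing sign when WT replicate 1 (-0.0055) or Dock3 KO replicate 1 (-0.016) was left out. All 5 measured members had a log2 difference above 0 under each of 16 alternatives, beside 49.0% of all genes tested in the main fit. The members were chosen with this comparison known, so nothing is read from that direction. Apart from construction, the cause of the moves listed above was not tested.

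With the replicate block the sum of all members was 0.89 and 127 genes passed, with 1 residual degree of freedom. The shared numbers 1 and 3 are not stated to pair the samples, and the deviations of same-numbered samples correlated at 0.065 and 0.0066 across genes. The alternatives chosen after seeing the data were Dock3 KO replicate 3 alone, rescaling without the 10 genes of highest mean, neighbours without a shared word and the sum of Loxl2 and Gm21451. Values near 1 read (Gm38378, and Gm16867 in WT) are at the limit of this depth.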
